A study of Mus musculus with 21 samples.

Results

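The genes described here are 8 members of the Ly6/uPAR family, a group of small cysteine-rich proteins, measured in mouse epidermal sheets: Slurp1, Ly6d, Lypd3, Lypd5, Ly6g6c, Ly6a, Ly6c1 and Ly6e. They were chosen by name and found by matching the Ensembl gene identifiers of the count files to gene symbols. All 8 were among the 49315 genes listed and among the 17755 genes tested at 6 months. Another 39 genes of the family were also found in the files.

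Proteins of this family carry the LU domain, a fold of finger-like loops held together by disulfide bonds. Most are tethered to the outer face of the plasma membrane by a glycosylphosphatidylinositol (GPI) anchor, and a few, such as Slurp1, are secreted. In stratified epithelia they take part in adhesion, in the urokinase receptor system and in signalling through nicotinic acetylcholine receptors, and several are made mainly in the differentiating layers of the epidermis. Loss of human SLURP1 causes Mal de Meleda, a thickening of the skin of palms and soles.

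The series asked what the AP-2 transcription factors made from Tfap2a and Tfap2b do in the skin of adult mice, by sequencing total RNA of epidermal sheets after depletion of ribosomal RNA. The comparison at 6 months of age set 3 samples of genotype K14CreTfap2afl/flTfap2bfl/fl, the double knockout (dKO), against 3 samples labelled as a strain-specific control with a wild-type genotype. The remaining libraries with counts were 2 of genotype K14CreTfap2bfl/fl, the Tfap2b knockout, at 3 weeks. K14Cre makes Cre recombinase under a Krt14 promoter, which is active in basal keratinocytes, so immune, endothelial and pigment cells of a sheet keep both genes. The labels do not say whether a sample is 1 animal or a pool, and p-values measure the spread between these samples, which may be partly technical.

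The 6 libraries at 6 months held 11318181 to 17746284 counts and the 2 at 3 weeks 12971951 and 12512099. The other 13 of the 21 files list 0 for each gene. Neither targeted gene was lost at the level of whole-gene counts: Tfap2a was fitted at a log2 fold change (log2FC) of 0.47 (SE 0.19, edgeR adjusted p 0.118) and Tfap2b at -0.43 (SE 0.17, edgeR adjusted p 0.111), so every direction below is that of libraries by their labels. Reads outside a deleted exon also enter such counts. Control replicates 1 and 2 had 35794 and 39362 genes with at least 1 count, against 23454 to 25537 in the other 6 libraries. Control replicate 3 had rank correlations of 0.942 and 0.947 with the other controls and of 0.944 to 0.951 with the dKO-labelled libraries. The keratins that define epidermis, Krt5, Krt14, Krt1 and Krt10, had control means of 1230 to 5841 CPM (counts scaled to a library total of 1000000). The first library labelled Tfap2b knockout stood apart, with 2611 CPM summed over 7 dermal fibroblast markers and 504 over 8 endothelial markers, against 17.4 and 0.560 in the second.

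The annotation places 5 of the 8 genes in a stretch of 884.6 kb on chromosome 15 (GRCm38, 74714839 to 75599481) that holds 21 genes of the family in all. Lypd3 and Lypd5 lie on chromosome 7, and Ly6g6c lies on chromosome 17 in the major histocompatibility region. RefSeq promoter sequences (GRCm38.p6) were at hand for 4 of the 8. The 250 bases before the transcription start are printed 5′ to 3′ on the gene's strand for Ly6c1, Lypd5 and Ly6g6c, the ones of those 4 with the largest fitted differences at 6 months. Capitals mark matches to GCCNNNGGC, a core of the AP-2 recognition sequence, and to TATAAA, searched on both strands.
Ly6c1 promoter, chr15:75048838-75049087, minus strand: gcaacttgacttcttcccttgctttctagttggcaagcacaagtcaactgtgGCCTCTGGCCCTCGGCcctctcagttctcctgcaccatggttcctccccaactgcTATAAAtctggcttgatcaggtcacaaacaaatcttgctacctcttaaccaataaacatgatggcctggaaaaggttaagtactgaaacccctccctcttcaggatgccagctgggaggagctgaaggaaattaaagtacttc
Lypd5 promoter, chr7:24348946-24349195, plus strand: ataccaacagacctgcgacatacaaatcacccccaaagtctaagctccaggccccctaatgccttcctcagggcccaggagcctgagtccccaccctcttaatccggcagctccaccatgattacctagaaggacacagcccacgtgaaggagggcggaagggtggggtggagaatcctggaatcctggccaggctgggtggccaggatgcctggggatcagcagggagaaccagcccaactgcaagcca
Ly6g6c promoter, chr17:35067075-35067324, plus strand: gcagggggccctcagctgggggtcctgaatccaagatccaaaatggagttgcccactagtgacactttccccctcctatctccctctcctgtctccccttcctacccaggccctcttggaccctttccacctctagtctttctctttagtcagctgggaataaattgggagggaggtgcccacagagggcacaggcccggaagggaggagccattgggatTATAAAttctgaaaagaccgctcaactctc

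The Ly6c1 sequence held 2 overlapping matches to GCCNNNGGC, GCCTCTGGC and GCCCTCGGC, whose first bases lay 198 and 191 bases before the start, and a TATAAA at 143 bases before it. The Ly6g6c sequence held a TATAAA at 30 bases before the start, and that RefSeq start lies within the longer gene of the count files. Neither motif was in the printed Lypd5 sequence. TGANTCA, the recognition sequence of AP-1, and the core of the interferon response element were in none of the 3, and none of the 4 motifs was in the Lypd3 promoter or at a second start listed for Ly6c1. In all 32841 promoters of the same length, which also take in 50 bases after the start, GCCNNNGGC was found in 16.6%, TATAAA in 13.6%, TGANTCA in 7.81% and the interferon response element core in 3.44%. A match describes the letters and is not evidence of binding.

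At 6 months none of the 8 genes passed edgeR's quasi-likelihood test at an adjusted p of 0.05, which 14.9% of all 17755 tested genes passed (6.26% higher and 8.59% lower in the dKO-labelled libraries). Slurp1 and Ly6a were higher in each dKO-labelled library than in each control, Lypd5 and Ly6g6c were lower in each, and Ly6d, Lypd3, Ly6c1 and Ly6e overlapped. Groups without overlap were thus seen in 4 of 8, where 38.7% of all tested genes had them (22.5% above and 16.3% below the controls), and an unadjusted p under 0.05 in the same 4 of 8, against 32% of all tested genes. These shares are close to the background. DESeq2 called Slurp1 and Ly6a higher and Lypd5 lower, and limma-voom called Slurp1. The 14.9% is edgeR's share and is no background for these calls. The shares of all genes that DESeq2 and limma-voom called are not given here, so no excess is read from them. The median log2FC of the 8 was -0.093, and that of all tested genes -0.035. In bulk RNA, fewer cells of a type and less RNA per cell cannot be told apart.

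**Figure D1:**
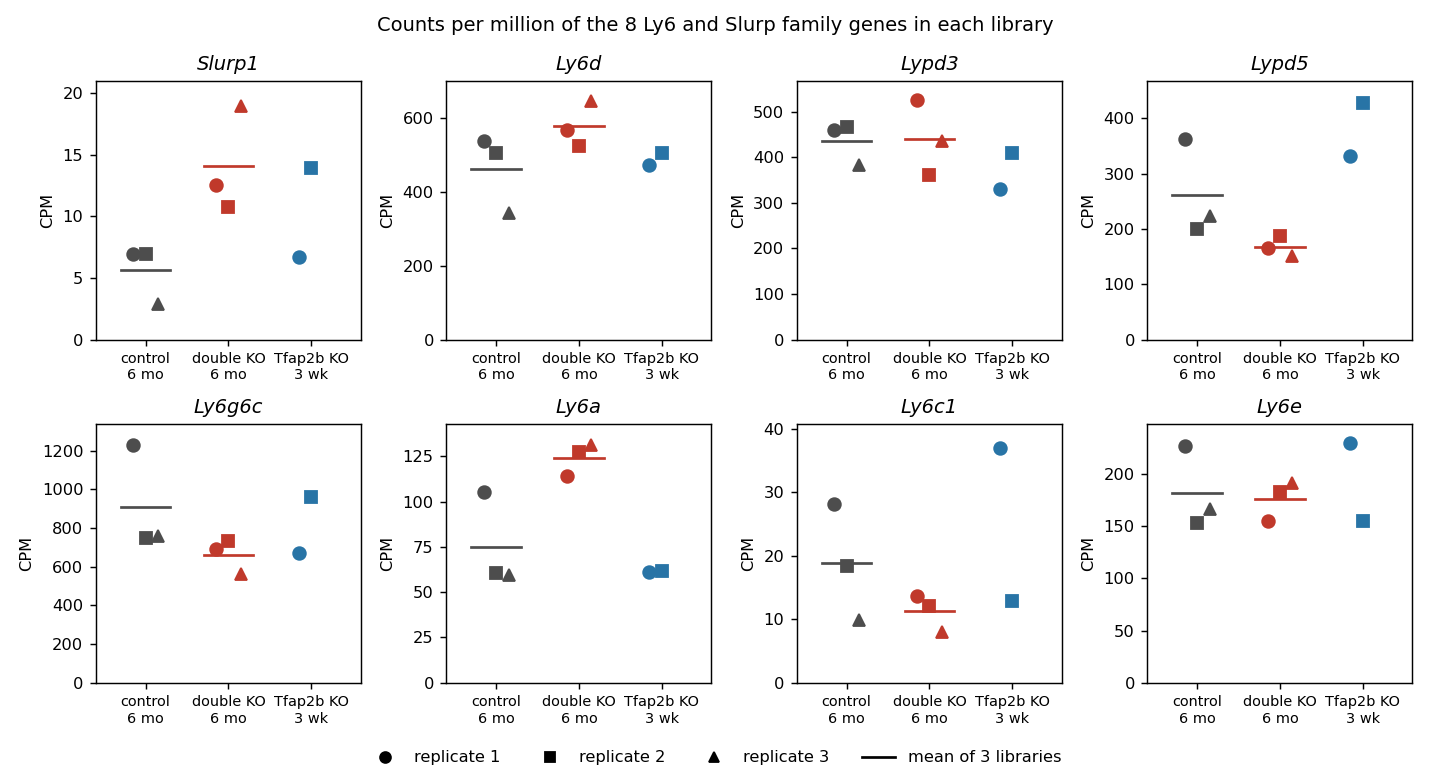
CPM of the 8 genes in each of the 8 libraries with counts; each panel has its own vertical axis from 0, marker shape gives the replicate number and the line is the mean of 3 libraries. Slurp1 and Ly6a lie above all controls in the dKO-labelled libraries, Lypd5 and Ly6g6c lie below them, and control replicate 1 is the highest control for Lypd5, Ly6g6c, Ly6a, Ly6c1, Ly6e and Ly6d.

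Slurp1 (ENSMUSG00000022596, chromosome 15, 74724318 to 74728034, minus strand) encodes a secreted ligand of the α7 nicotinic acetylcholine receptor made by keratinocytes. It was the lowest of the 8 genes by mean CPM in the controls, on 44 to 84 counts in a control and 158 to 337 in a dKO-labelled library. The controls held 6.98, 6.98 and 2.87 CPM and the dKO-labelled libraries 12.5, 10.8 and 19.0 CPM. The lowest knockout-labelled library was above the highest control, and replicate 3 was the lowest control and the highest dKO-labelled library. The means were 5.61 ± 2.38 and 14.1 ± 4.33 CPM (SD, n = 3 each), a log2FC of 1.24 (SE 0.38, 95% interval 0.40 to 2.09). Its edgeR adjusted p was 0.0510, just short of the threshold, and over the 16 alternatives it ranged from 0.000225 to 0.135, with the threshold passed in 8. Without control replicate 3 the log2FC was 1.01 (edgeR adjusted p 0.0286), and with control replicate 3 as the single control it was 2.20. Slurp1 shares 322 exonic bases with Them6 on the opposite strand, and the use of strand in counting was not stated. Them6 held 5 to 27 counts, and with the counts of both genes summed the log2FC was 1.19 (edgeR adjusted p 0.0453).

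Ly6d (ENSMUSG00000034634, chromosome 15, 74762056 to 74763620, minus strand), a GPI-anchored surface protein of stratified epithelia, was among the most abundant of the 8. The controls held 538, 506 and 342 CPM and the dKO-labelled libraries 567, 525 and 646 CPM. The groups overlapped, and control replicate 3 lay well below the other 5 libraries. The log2FC was 0.25 (SE 0.19, 95% interval -0.17 to 0.66, edgeR adjusted p 0.389), positive in all 16 alternatives and past the threshold in none. Fits that left out control replicate 3 or control replicate 1 gave 0.16 and 0.38, the extremes of the 6 such fits, and control replicate 3 as the single control gave 0.71.

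Lypd3 (ENSMUSG00000057454, chromosome 7, 24636550 to 24641118, plus strand), also called C4.4A, is a relative of the urokinase receptor found on suprabasal keratinocytes. The controls held 459, 467 and 384 CPM, the smallest spread of the 8 genes (coefficient of variation 10.5%). The dKO-labelled libraries held 526, 362 and 436 CPM, which ran from below the lowest control to above the highest. The log2FC was -0.064 (SE 0.16, 95% interval -0.42 to 0.30, edgeR adjusted p 0.814), and its sign turned with total counts as the scaling, at 0.0025, and without the dKO-labelled replicate 2, at 0.0996. Lypd3 shares 225 exonic bases with the antisense gene Gm26550, which held 197 to 243 counts in the controls and 93 to 116 in the dKO-labelled libraries, so part of its count is uncertain.

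Lypd5 (ENSMUSG00000030484, chromosome 7, 24349196 to 24355109, plus strand), also called haldisin, encodes a GPI-anchored protein known from the granular layer of human epidermis. The controls held 362, 200 and 223 CPM and the dKO-labelled libraries 166, 187 and 151 CPM. Every dKO-labelled library was below every control, and control replicate 1 stood well above the other controls. The means were 262 ± 88.0 and 168 ± 18.1 CPM (SD, n = 3 each), a log2FC of -0.72 (SE 0.22, 95% interval -1.22 to -0.22). Its edgeR adjusted p was 0.0559, and over the alternatives it ranged from 0.0142 to 0.172. Without control replicate 1 the log2FC was -0.40, and without control replicate 3 it was -0.74 and past the threshold (edgeR adjusted p 0.0341).

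Ly6g6c (ENSMUSG00000092586, chromosome 17, 35065388 to 35070050, plus strand), a GPI-anchored member encoded in the major histocompatibility region, was the most abundant of the 8 by mean CPM in both groups. The controls held 1227, 746 and 759 CPM and the dKO-labelled libraries 693, 731 and 561 CPM. The gap between the groups was small, since the highest dKO-labelled library lay just under control replicate 2. The log2FC was -0.54 (SE 0.21, 95% interval -1.01 to -0.071, edgeR adjusted p 0.109), negative in all 16 alternatives and past the threshold in none. It was -0.25 without control replicate 1.

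The fold-change plot sets these fitted values beside those of the remaining genes. Ly6a (ENSMUSG00000075602, chromosome 15, 74994877 to 74998031, minus strand), known as Sca-1, is a GPI-anchored marker of mouse blood stem cells that keratinocytes also carry. The controls held 105, 60.5 and 59.5 CPM and the dKO-labelled libraries 114, 127 and 131 CPM. All 3 dKO-labelled libraries were above all controls, narrowly so for control replicate 1. The means were 75.1 ± 26.2 and 124 ± 8.83 CPM (SD, n = 3 each), a log2FC of 0.65 (SE 0.23, 95% interval 0.14 to 1.15, edgeR adjusted p 0.0815). Without control replicate 1 the log2FC was 0.98 and passed the threshold (edgeR adjusted p 0.00728), and over the alternatives the adjusted p ranged from 0.00128 to 0.219.

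Ly6c1 (ENSMUSG00000079018, chromosome 15, 75044018 to 75048830, minus strand) encodes part of the Ly6C antigen of monocytes, T cells and endothelial cells. The controls held 28.2, 18.4 and 9.90 CPM and the dKO-labelled libraries 13.7, 12.1 and 7.95 CPM. Control replicate 3 lay within the range of the dKO-labelled libraries, so the groups overlapped. The log2FC was -0.82 (SE 0.37, 95% interval -1.66 to 0.013, edgeR adjusted p 0.158). Its direction rested on the other controls: it was -1.05 without control replicate 3 (edgeR adjusted p 0.0185), -0.40 without control replicate 1, and 0.12 with control replicate 3 as the single control. Of its 150-base windows 2.29% are identical in Ly6c2, which held at most 1.77 CPM in any library.

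Ly6e (ENSMUSG00000022587, chromosome 15, 74955051 to 74959905, plus strand), an interferon-induced GPI-anchored protein that modulates virus entry, held 227, 153 and 167 CPM among the controls and 155, 182 and 192 CPM in the dKO-labelled libraries. The groups overlapped almost fully. The log2FC was -0.12 (SE 0.17, 95% interval -0.51 to 0.27, edgeR adjusted p 0.661), and it was 0.077 without control replicate 1 and 0.015 without the dKO-labelled replicate 1.

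**Figure D2:**
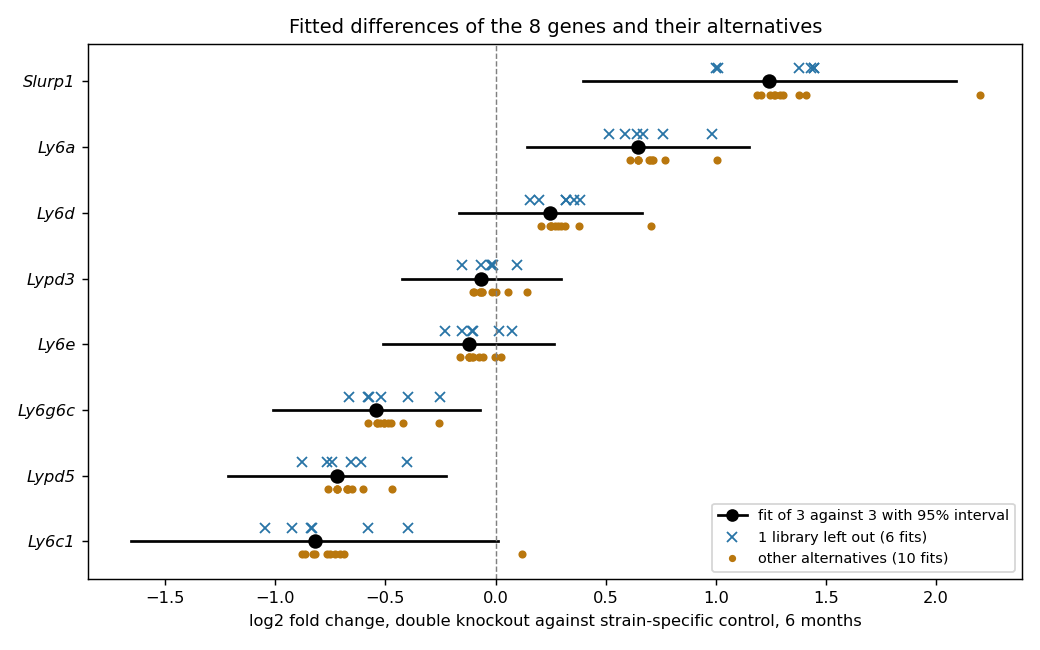
Fitted log2FC values at 6 months (horizontal axis) with their 95% intervals in black, the 6 fits that each left out 1 library as blue crosses and the other 10 alternatives as brown points. The intervals of Slurp1 and Ly6a lie above 0 and those of Ly6g6c and Lypd5 below it before adjustment over all genes; Lypd3 with total counts, among other settings, and Ly6e and Ly6c1 in some alternatives lie on the other side of 0.

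Per kilobase of exon the 8 genes spanned a wide range. The length used was that of all exons annotated in the files, from 744 bases for Ly6d to 3784 for Ly6e. Transcripts present in the sheets may be shorter, so the order of genes below depends on these lengths. In the controls the mean levels were 666 CPM per kb for Ly6g6c and 621 for Ly6d, whose libraries overlapped. Next came Lypd3 at 265 and Lypd5 at 117 CPM per kb, then Ly6a at 62.3 and Ly6e at 48.2, which overlapped each other, Ly6c1 at 11.2 and Slurp1 at 1.91 CPM per kb. Among the controls 0.208% of tested genes had a higher mean level per kb than Ly6g6c, 0.214% than Ly6d and 0.586% than Lypd3, but 65.6% than Slurp1. In the dKO-labelled libraries the order differed at 2 places. Ly6d was at 706 to 868 CPM per kb there, above Ly6g6c at 411 to 534, and Ly6a was at 94.8 to 109 CPM per kb, above Lypd5 at 67.3 to 83.4. Ly6c1 at 4.74 to 8.16 and Slurp1 at 3.67 to 6.48 CPM per kb overlapped in these libraries, although Ly6c1 lay above Slurp1 in every control. The counts of all 8 genes came to 0.195% to 0.295% of a library's counts at 6 months.

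**Figure D3:**
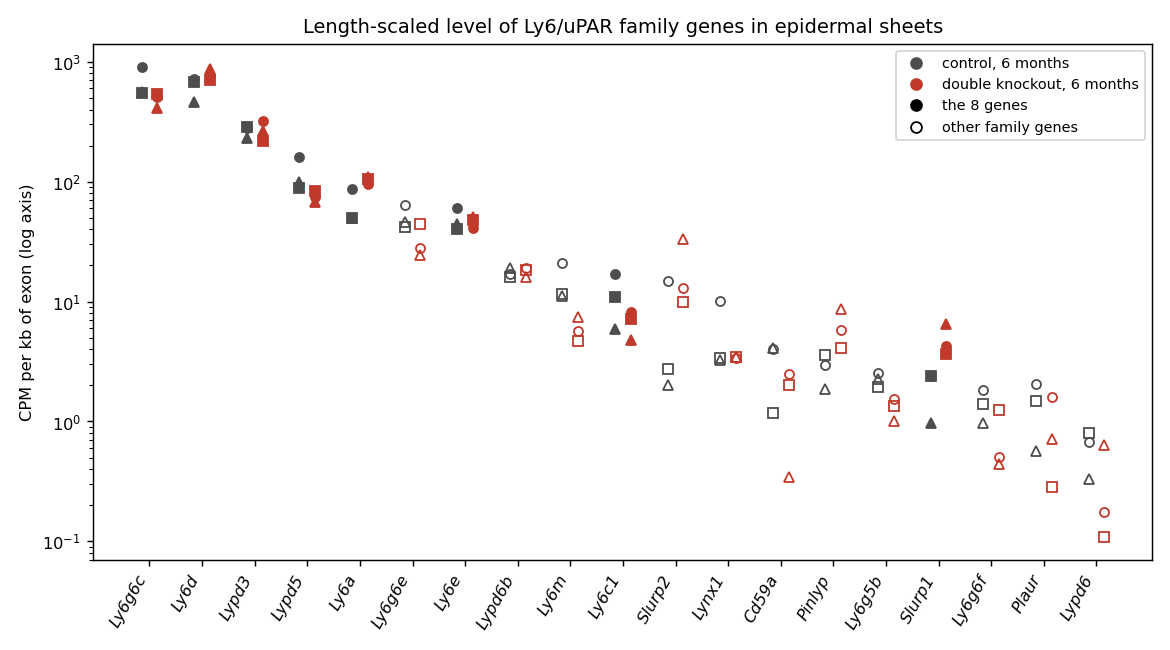
Level per kilobase of exon (CPM per kb, log axis) of the 8 genes (filled) and of the other Ly6/uPAR family genes with a mean of at least 1 CPM (open) in the 6 libraries at 6 months, ordered by the mean of the controls; marker shape gives the replicate number. Ly6g6c, Ly6d, Lypd3, Lypd5 and Ly6a have the highest control means of the family, and Slurp1 lies among the low ones.

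Of the 42 other family genes looked for, 39 were in the files and 15 were expressed highly enough to be tested. Ly6m was lower in the dKO-labelled libraries and no gene was higher, and the median log2FC of the 15 was -0.83, against -0.035 over all tested genes. With control replicate 3 as the single control that median was -0.14 and none of the 15 was called. A gene could pass the filter on low counts through 1 group alone, so the median describes the genes that passed. Ly6m, a neighbour of Ly6e on chromosome 15, held 68.8, 38.3 and 37.1 CPM among the controls and 18.8, 15.6 and 24.5 CPM in the dKO-labelled libraries. Its groups did not overlap, and it fell by a log2FC of -1.36 (SE 0.28, edgeR adjusted p 0.0150). Without dKO-labelled replicate 1 or 2 it was -1.27 and -1.18 and no longer past the threshold (edgeR adjusted p 0.0722 and 0.0549). It was the 1 called gene among the 11 tested in the chromosome 15 stretch. The count of lower genes on this list ran from 0 without dKO-labelled replicate 1 to 3 without control replicate 3. The other genes there with family names included Lynx1, which encodes a membrane-bound modulator of nicotinic receptors and was at 47.3 CPM in control replicate 1 against 15.2 to 16.0 in the other 5 libraries (log2FC -0.79, edgeR adjusted p 0.226). Without that control its log2FC was -0.031. Slurp2, a second secreted ligand of nicotinic receptors, was at 8.06, 1.5 and 1.11 CPM among the controls and 7.10, 5.39 and 18.1 CPM in the dKO-labelled libraries, with overlap (log2FC 1.42, edgeR adjusted p 0.248). Without control replicate 1 the log2FC of Slurp2 was 2.80 and past the threshold (edgeR adjusted p 0.0329). Outside this stretch Ly6g6e, which lies near Ly6g6c, was at 64.2 ± 14.8 against 41.0 ± 13.6 CPM (SD, n = 3 each, log2FC -0.72, edgeR adjusted p 0.0813), and Lypd6b at 45.1 ± 3.78 against 46.4 ± 4.27 CPM (log2FC -0.034, edgeR adjusted p 0.895). Plaur, the urokinase receptor, was at 1.5 to 5.40 CPM among the controls and 0.750 to 4.20 CPM in the dKO-labelled libraries. Pinlyp (log2FC 1.04), Cd59a (-0.99), Ly6g5b (-0.83), Ly6g6f (-0.89) and Lypd6 (-0.94) also had a mean of at least 1 CPM and did not pass the threshold.

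Partners of these proteins were examined through lists. Of the 16 nicotinic receptor subunit genes, 3 could be tested, and Chrnb1, the muscle-type β1 subunit, was lower, at 17.5, 5.57 and 6.90 against 4.42, 1.30 and 1.92 CPM (log2FC -2.01, SE 0.57, edgeR adjusted p 0.0409). Without control replicate 1 it was -1.33, and it also lost the threshold without control replicate 2, dKO-labelled replicate 2 or dKO-labelled replicate 3 (-2.29, -1.66 and -1.80). Chrnb2 was at 5.47 to 6.63 CPM among the controls and 4.13 to 6.26 in the dKO-labelled libraries (log2FC -0.29, edgeR adjusted p 0.529), and Chrnb4 was at 6.40, 5.74 and 0 CPM among the controls and 0.113 to 3.14 CPM in the dKO-labelled libraries. Chrna7, which encodes the receptor of Slurp1, was at 0.997, 4.24 and 0 CPM among the controls and 0.435, 0.273 and 0 CPM in the dKO-labelled libraries, too low to be tested. The summed CPM of the 16 subunits were 43.9 and 40.9 in control replicates 1 and 2, the libraries with the most genes detected, compared with 13.9 for control replicate 3 and 9.19 to 11.6 for the dKO-labelled libraries. The part of that detection in these values was not tested. Without control replicate 3, 11 subunit genes were tested and 8 were called lower, against 0 to 1 in the other 5 fits that left out a library. In that fit a gene could pass the filter on low counts through control replicates 1 and 2 alone. For such genes the filter fixed the direction, so the 8 calls are not separate evidence of a difference. Of 7 cholinergic enzymes and carriers 4 were tested and none passed, among them Ache, acetylcholinesterase, at 24.7 to 70.8 and 25.4 to 62.3 CPM in the respective groups.

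The next list held the urokinase system, integrins and laminins to which Lypd3 and Plaur are linked. Of its 11 tested genes, 6 were higher and 1 was lower in the dKO-labelled libraries, with a median log2FC of 0.73. Among all tested genes 6.26% were called higher and 8.59% lower. Itga6 and Itgb4 are also among the 8 basal keratinocyte markers below, so the counts of these lists are not independent. Among the higher genes were Plau, urokinase itself (log2FC 0.96, edgeR adjusted p 0.0468), the hemidesmosome integrins Itga6 and Itgb4, Itgb1, and the laminin chain Lama3. Itga6 went from 744 ± 66.4 to 1463 ± 114 CPM (SD, n = 3 each, log2FC 0.90, SE 0.14, edgeR adjusted p 0.00408). The lower gene was Plat, tissue plasminogen activator, at 53.3 ± 25.7 against 13.4 ± 6.49 CPM (SD, n = 3 each, log2FC -2.06, edgeR adjusted p 0.0204). Serpinb2, an inhibitor of urokinase, was the most abundant of the list, at 1576 ± 203 against 1130 ± 298 CPM (SD, n = 3 each, edgeR adjusted p 0.0878). Itga6 passed the threshold in all 16 alternatives, Itgb4 in 14, Lama3 in 13, Plat in 11 and Plau and Itgb1 in 9. The list's count of higher genes ran from 2 without dKO-labelled replicate 1 to 8 without control replicate 3, and it was 1 with control replicate 3 as the single control.

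Of the genes for making GPI anchors, 2 of 27 tested were higher and none was lower, a share near the 6.26% of all tested genes called higher, with a median log2FC of 0.17. The higher ones were Pigq, which acts in the first step of anchor synthesis (48.4 ± 2.94 against 96.5 ± 3.36 CPM, SD, n = 3 each, edgeR adjusted p 0.00300), and Pigt, a subunit of the transamidase that attaches the anchor (log2FC 0.60, edgeR adjusted p 0.0384). Of 19 tested genes for other GPI-anchored proteins, 3 were higher and 2 lower, with a median of -0.25 that was 0.047 without control replicate 1. Thy1 rose from 23.3 ± 7.34 to 83.0 ± 23.5 CPM (SD, n = 3 each, log2FC 1.75, SE 0.27, edgeR adjusted p 0.00494), and Gpc1 and Cdh13 were also higher. Nt5e, the ectonucleotidase CD73, fell from 83.8 ± 12.9 to 26.0 ± 2.62 CPM (SD, n = 3 each, log2FC -1.76, SE 0.17, edgeR adjusted p 0.000527), and Efna3 was the other lower gene. Pigq and Nt5e passed the threshold in all 16 alternatives and Thy1 in 15, Gpc1 in 10, Cdh13 and Efna3 in 9 and Pigt in 8. Without control replicate 3, 7 anchor synthesis genes and 5 of the other GPI-anchored genes were higher, against 1 and 1 to 2 in the other fits that left out a library. That fit also called more genes over all tested genes than any other fit that left out a library, so the rise is not particular to these lists.

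Interferon-stimulated genes were listed because Ly6a and Ly6e respond to interferon in other cells. Of 13 tested, 1 was higher and 3 were lower, with a median log2FC of -0.15. The lower genes were Irf1, Usp18 and Oasl2, with log2FC values of -1.40, -2.42 and -2.78 (edgeR adjusted p 0.0133, 0.00772 and 0.0215). Usp18 passed the threshold in 15 of the 16 alternatives, Irf1 in 12 and Oasl2 in 9, and the count of lower genes was 6 without control replicate 3, 1 without dKO-labelled replicate 1 or 2, and 0 with control replicate 3 as the single control.

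Markers of keratinocyte layers differed between the same groups. The summed CPM of 8 basal markers were 9383 to 11970 in the controls and 17680 to 21050 in the dKO-labelled libraries, with 6 of 8 called higher, Krt5 and Krt14 among them. The basal keratin Krt15 lay the other way, at 728, 1164 and 1187 CPM among the controls and 234, 673 and 330 CPM in the dKO-labelled libraries (log2FC -1.39, edgeR adjusted p 0.0513), and was called lower in 7 of the 16 alternatives, DESeq2 and limma-voom among them. The sums of 8 wound and stress markers were 149.9 to 358 and 3106 to 4097 CPM, with 5 of 8 called higher, such as Krt6a and Krt6b. With 1 library left out, 3 (without dKO-labelled replicate 1) to 6 basal and 3 to 5 wound markers were called higher, and 2 and 4 with control replicate 3 as the single control. These sums differed between the groups in the same direction as Slurp1 and Ly6a, and their part in those values was not tested. Within the controls the order was another: replicate 1 had the highest Ly6a but the lowest of both sums, and replicate 3 the lowest Slurp1 but the highest basal sum. Among the dKO-labelled libraries replicate 3 was the highest in both genes and both sums. For 10 granular and cornified layer markers the sums were 5451, 3315 and 4007 CPM among the controls and 1737, 2732 and 3126 CPM in the dKO-labelled libraries, with Flg2, Cdsn and Klk5 called lower and none higher. The median log2FC of the 10 was -0.15, and it was 0.16 without control replicate 1 and 0.12 without dKO-labelled replicate 1. Casp14, a protease of cornification, was above every control in each dKO-labelled library (log2FC 0.86, edgeR adjusted p 0.0734), and Flg and Tgm3 had log2FC values of 1.01 and 1.23 with overlap (edgeR adjusted p 0.395 and 0.322), which were -0.13 and 0.065 without dKO-labelled replicate 3. None of these 10 was at 0 in any library. Control replicate 1 was the highest of the 6 libraries, and control replicate 2 the lowest control, in the granular sum, in Lypd5 and in Ly6g6c. Among the dKO-labelled libraries the order differed: replicate 3 had the highest granular sum and the lowest Lypd5 and Ly6g6c. The part of the granular layer in the Lypd5 and Ly6g6c values was not tested. The 7 suprabasal markers overlapped between the groups in their sum (11880 to 14570 and 12540 to 16490 CPM), with 2 called higher and 1 lower (1 to 2 and 0 to 1 with 1 library left out), beside Lypd3, whose groups also overlapped.

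Ly6c1 and Ly6a are also known from endothelial, immune and fibroblast cells. The 8 endothelial markers summed to 17.4, 27.8 and 6.19 CPM among the controls and 7.98 to 10.1 CPM in the dKO-labelled libraries, none at 0, with 0 of 5 tested called (edgeR; 0 at an unadjusted p under 0.05). The 7 dermal fibroblast markers summed to 53.8 to 159 and 12.2 to 23.6 CPM, with 3 called lower and none higher. With 1 library left out the count of lower fibroblast markers ran from 1 (without any 1 dKO-labelled library) to 6 (without control replicate 3). The lowest control for Ly6c1, replicate 3, was also the lowest control in the endothelial sum, and the part of these cells in the Ly6c1 values was not tested. Ly6a was higher in the dKO-labelled libraries, in which the fibroblast sum was lower, and the part of fibroblasts in the Ly6a values was not tested. The 10 Langerhans and other myeloid markers overlapped in their sums (646 to 868 and 550 to 821 CPM), with none called by edgeR and 2 at an unadjusted p under 0.05. The 8 T cell markers also overlapped (84.9 to 172 and 94.0 to 216 CPM). Thy1 was the T cell marker called higher, whereas Cd3e was at 44.5 ± 18.5 and 36.9 ± 19.6 CPM (SD, n = 3 each, edgeR adjusted p 0.656).

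**Figure D4:**
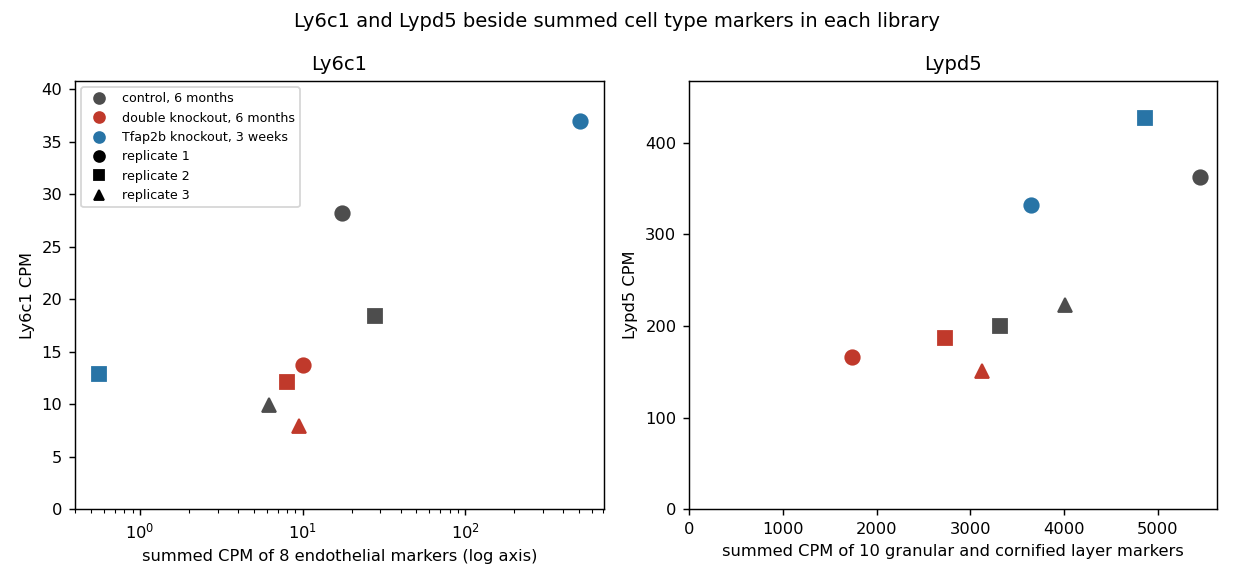
Left, Ly6c1 CPM against the summed CPM of 8 endothelial markers (log axis); right, Lypd5 CPM against the summed CPM of 10 granular and cornified layer markers; each point is 1 of the 8 libraries. The first library labelled Tfap2b knockout is highest in both measures on the left, and on the right the dKO-labelled libraries lie at the lower left.

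In the 2 libraries labelled Tfap2b knockout at 3 weeks the 8 genes were all detected, and no control of that age had counts, so their values are given without a comparison. Lypd5 held 332 and 427 CPM there, Ly6g6c 668 and 960, Lypd3 331 and 409, and Ly6d 474 and 506 CPM. Ly6a held 61.0 and 61.7 CPM, near the lower controls of 6 months. Ly6e held 230 and 155, Slurp1 6.71 and 13.9, and Ly6c1 37.0 and 12.9 CPM. Ly6c1 was highest of all 8 libraries in the one with the dermal and endothelial markers. There Gpihbp1, a family member of capillary endothelium, was at 15.3 CPM against 0 in the other. That library also stood apart in its sums of sebaceous gland (14170 against 928 CPM) and adipocyte markers (712 against 0.24 CPM). The part of any of these cells in its Ly6c1 value was not tested. In the second library 6 of the 8 endothelial markers were at 0, and Ly6c1 was at 12.9 CPM, from 161 counts.

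The 8 genes did not vary together. Over the 8 libraries the Pearson correlations of log2 CPM ranged from -0.53 for Ly6a with Lypd5 to 0.89 for Ly6d with Slurp1. The next highest were Ly6g6c with Lypd5 at 0.74 and Ly6a with Ly6d at 0.70. These points share libraries of different genotype, age and cell makeup and describe these 8 libraries. By the same measure the gene most like Slurp1 among those tested was Slc34a2 (r 0.960), which held 11 to 20.8 CPM among the controls and 39.5 to 78.6 CPM in the dKO-labelled libraries. For Ly6a it was Crabp2, encoding a retinoic acid binding protein (r 0.979), at 28.9 to 50.2 and 64.1 to 78.7 CPM. For Lypd5 it was Tbx6 (r 0.976) and for Ly6g6c Zc3hav1, encoding an antiviral zinc finger protein (r 0.974). Ly6c1 was nearest to Phyhd1 (r 0.966), Ly6e to Tmed1 (0.958), Lypd3 to Nsun6 (0.95) and Ly6d to Eif5a (0.941). Each of these genes is the best of a search through all tested protein-coding genes over only 8 libraries. A high r can come from such a search alone, so these genes are not read as partners. Second genes lay close behind, such as Pqlc3 for Ly6a (r 0.976) and Tead1 for Lypd5 (r 0.975).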

How the data were processed

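Total RNA of mouse epidermal sheets was sequenced as paired-end reads of 150 bp, and samples were grouped by their titles. The authors deposited raw read counts, as whole numbers, for 49315 Ensembl genes with their exon coordinates. Per the submitters' processing notes, Trimmomatic 0.36, STAR 2.5.2b and featureCounts of Subread 1.5.2 were used, and the builds GRCh38 and GRCm38 are named with no role given. Strand and the handling of multiply mapped reads were not given in the sources used here. Of the identifiers, 48970 (99.3%) were in GENCODE M21 (GRCm38), which gave the symbols, and coordinates are those of the files.

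CPM are counts per 1000000 counts of a library, without further factors. Both 6-month groups were compared with edgeR 4.0.16 (R 4.3.3) by its quasi-likelihood F test, with filterByExpr, TMM factors, robust glmQLFit and a prior count of 2. P-values were adjusted over all 17755 genes by Benjamini-Hochberg, with a threshold of 0.05. Standard errors and 95% intervals follow from that F and the coefficient before shrinkage. On simulated data holding 200 genes with a 4-fold change, 140 of the 190 that were tested (73.7%) were called, with 20 false calls among 17306 genes. The false calls were a larger share of the calls than the threshold of 0.05. A 4-fold change is larger than any fitted for the 8 genes, of which Slurp1 had the largest log2FC at 1.24. Recovery of smaller changes was not simulated. DESeq2 1.42.0, limma-voom (limma 3.58.1), other scalings, filters and designs, and each library left out in turn were the alternatives. The likeness of patterns is Pearson's r of log2(CPM + 1) over 8 libraries.

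The 8 genes and all gene lists were chosen with earlier results of these data known. All 8 were named, as were other family genes with a mean of at least 1 CPM and, of each further list, the most abundant genes and the called genes with the largest change, at most 4, beside a few singled out after their values were seen (Chrna7, Chrnb4, Gpihbp1, Cd3e, Krt15, Casp14, Flg, Tgm3 and members listed as called). Protein sequences were not used here, and some called genes of these lists are not reported here.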

Additional observations from a re-analysis of the deposited data

Results flagged for a closer look

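The libraries labelled Tfap2b knockout at 3 weeks entered no comparison, since no control library of that age had counts, and all 8 genes were detected in both of them above the limit that a count of 0 allows. The lower of the 2 values was 474 CPM for Ly6d, 668 CPM for Ly6g6c, 331 CPM for Lypd3 and 332 CPM for Lypd5. For the genes that other cell types also express it was 61.0 CPM for Ly6a, 155 CPM for Ly6e and 12.9 CPM for Ly6c1, and for the secreted Slurp1 it was 6.71 CPM.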

How the results depend on the processing

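All 16 alternatives kept the direction of Slurp1, Ly6a, Ly6d, Lypd5 and Ly6g6c. Ly6d and Ly6g6c passed the threshold in none of them. The count of called genes was 2637 (1111 higher, 1526 lower). It was 4809 (1941 and 2868) without a filter on low counts, which also moved the median of all genes by 0.111 on the log2 scale, 1548 (658 and 890) with all libraries in one fit and 437 (195 and 242) with control replicate 3 as the single control. Leaving out 1 library gave 668 (without the dKO-labelled replicate 1) to 7544 (without control replicate 3), with 313 to 2733 higher and 355 to 4811 lower. The list counts given above for these 2 fits are thus from the fits with the fewest and the most calls over all genes. Of the 8 genes, 1 was called higher with median-ratio size factors, total counts, limma-voom and counts summed with overlapping or near-identical genes (the last chosen after seeing the data), 2 without a filter, with DESeq2 and with control replicate 3 as the single control, and 0 to 1 when 1 library was left out. Called lower was 1 without a filter, with at least 10 counts in every library and with DESeq2, and 0 to 2 when 1 library was left out. For DESeq2, limma-voom and some other settings the count over all genes is not given here, so these counts have no background beside them.

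The values below are log2FC (edgeR adjusted p unless named). Slurp1 passed the threshold at 1.25 (p 0.0499) with median-ratio factors, 1.31 (0.0407) with total counts, 1.38 (0.000225) without a filter, 1.27 with DESeq2 (adjusted p 0.0115), 1.41 with limma-voom (0.0458), 2.20 (0.0490) against control replicate 3 alone, 1.19 (0.0453) summed with Them6. It ran from 1.00 to 1.45 with 1 library left out, and of these fits passed without control replicate 3. Ly6a passed at 0.77 without a filter, 0.65 with DESeq2 (adjusted p 0.0403), and 1.01 against control replicate 3 alone, and ran from 0.52 to 0.98 with 1 library left out, passing without control replicate 1. Lypd5 passed at -0.60 without a filter, -0.76 with at least 10 counts in every library, and -0.72 with DESeq2 (adjusted p 0.0164), and ran from -0.88 to -0.40 with 1 library left out, passing without control replicate 3. Ly6c1 ranged from -1.05 (past the threshold) to -0.40 with 1 library left out and was 0.12 against control replicate 3 alone. Lypd3 and Ly6e passed in no alternative. Lypd3 turned to 0.0025 with total counts, 0.057 without a filter and 0.14 against control replicate 3 alone, and ranged from -0.15 to 0.10 with 1 library left out. Ly6e turned to 0.027 against control replicate 3 alone and ranged from -0.23 to 0.077 with 1 library left out. Of the named genes outside the 8, some turned in sign, none of them past the threshold: against control replicate 3 alone Chrnb4 was 3.68, Lynx1 0.014 and Plaur 0.50, Lypd6b was 0.031 with total counts, 0.075 without a filter and 0.010 with all libraries in one fit, and Ache was 0.012 without a filter. With 1 library left out Ache ranged from -0.37 to 0.46, Cd3e from -0.63 to 0.065, Flg from -0.13 to 1.46 and Lypd6b from -0.082 to 0.11. A single control is assumed to vary like the other group, and the cause of these shifts was not tested.

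Deviations from the group mean correlated at 0.0276, -0.161 and -0.0574 for same-numbered samples of the 2 groups. For differently numbered samples they correlated at -0.111 to 0.169. Deviations within so small a group are tied to each other, so these values cannot settle whether replicate numbers pair the samples. With the replicate block 1729 genes were called (720 higher, 1009 lower) and none of the 8, and Slurp1 was 1.27 (edgeR adjusted p 0.108). The lowest count behind a value of the 8 genes was that of Slurp1 in control replicate 3, at 44.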

Other observations

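The ratio of 2 genes within a library does not depend on how libraries are scaled. Ratios of levels per kilobase were formed for 2 pairs chosen, after their values were seen, because their order differed between the groups, so the ratios are a description with no test. Ly6d to Ly6g6c, each a GPI-anchored surface protein of keratinocytes, was 0.806, 1.25 and 0.828 in the controls and 1.5, 1.32 and 2.11 in the dKO-labelled libraries. The mean log2 ratio was -0.089 ± 0.353 and 0.69 ± 0.35 (SD, n = 3 each).

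Ly6a to Lypd5 was 0.540, 0.563 and 0.495 in the controls and 1.28, 1.27 and 1.61 in the dKO-labelled libraries. The controls lay close together here, also control replicate 1, in which both genes were high by CPM. The mean log2 ratio was -0.91 ± 0.094 and 0.46 ± 0.20 (SD, n = 3 each). In the libraries labelled Tfap2b knockout at 3 weeks the same ratio was 0.342 and 0.268, and Ly6d to Ly6g6c was 1.30 and 0.969.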
